A study of Mus musculus with 5 samples.

Results

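Collagens, laminins and nidogens are the secreted proteins from which kidney matrix is built, and their transcripts were compared between kidneys of mice given DMXAA and kidneys of mice given vehicle. The members were all genes whose symbol names a collagen chain (Col, number, a, number), a laminin alpha, beta or gamma chain (Lama, Lamb, Lamc) or a nidogen (Nid1, Nid2), with at least 10 counts summed over the 5 libraries. Of 57 such symbols in the table of 54532 gene IDs, 53 met the minimum: 21 basement membrane genes, 10 fibrillar collagens and 22 other collagens. Col2a1 and Col22a1 lay just inside it with 10 counts each, and Col10a1 (9 counts) and Col11a1 (7 counts) just outside, followed by Col9a1 (5) and Col9a2 (1). An expression filter kept 48 of the 53 for testing. The other 5 (Col2a1, Col9a3, Col17a1, Col22a1 and Col28a1) had 10 to 23 counts in all and at most 0.811 CPM in any library, where CPM is the count scaled to the normalised library size.

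All animals were wild-type C57BL/6J males, 8 weeks old, and whole kidney was taken on day 3. The DMXAA group (2 libraries) received 10 mg/kg by intraperitoneal injection each day for 3 days, and the vehicle group (3 libraries) received vehicle by the same route and schedule. DMXAA binds and switches on the mouse form of STING, a protein that links cytosolic DNA to interferon production. The labels give sample numbers but do not tie them to separate mice. P-values therefore measure only how these samples spread, which may be technical.

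Basement membranes are thin sheets under epithelia and around vessels, made of a laminin network and a type IV collagen network that nidogens and the proteoglycan perlecan join together. A laminin is a trimer of 1 alpha, 1 beta and 1 gamma chain. In the glomerulus, podocytes lay down a type IV collagen of the alpha-3, alpha-4 and alpha-5 chains, which is defective in Alport syndrome, while alpha-1 and alpha-2 chains form the network found around tubules and vessels. Fibrillar collagens, chiefly types I, III and V, form the cross-banded fibrils of the interstitium and are made mostly by fibroblasts and other stromal cells.

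The genes of paired type IV chains lie head to head, and 4 upstream stretches are shown because the members differ in this way of being arranged and in their motifs. In GENCODE M21 the first exons of Col4a1 and Col4a2 share 22 bases, Col4a4 and Col4a3 are separated by 71 bases, and Col4a6 and Col4a5 by 1308 bases. The 71 bases between Col4a4 and Col4a3 (chr1:82586850-82586920) are given on the minus strand, read towards Col4a4. The Nid1 stretch (chr13:13437352-13437550, plus strand), the Col3a1 stretch (chr1:45311288-45311537, plus strand) and the Lama5 stretch (chr2:180225860-180226109, minus strand) are the exon-free bases upstream of a nidogen, a fibrillar collagen and a laminin alpha chain. Sequences are from RefSeq on GRCm38.p6, written 5′ to 3′, and capitals mark matches to the motifs named after them.
Col4a4 to Col4a3: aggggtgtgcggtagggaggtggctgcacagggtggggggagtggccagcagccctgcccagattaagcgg
Nid1: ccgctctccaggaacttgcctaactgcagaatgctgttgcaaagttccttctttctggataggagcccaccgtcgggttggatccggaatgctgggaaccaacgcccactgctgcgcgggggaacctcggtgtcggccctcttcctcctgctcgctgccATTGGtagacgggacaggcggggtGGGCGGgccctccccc
Col3a1: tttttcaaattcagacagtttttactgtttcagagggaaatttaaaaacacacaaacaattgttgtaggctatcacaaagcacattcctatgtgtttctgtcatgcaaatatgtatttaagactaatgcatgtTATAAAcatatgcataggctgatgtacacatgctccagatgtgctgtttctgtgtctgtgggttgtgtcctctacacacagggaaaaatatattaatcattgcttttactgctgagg
Lama5: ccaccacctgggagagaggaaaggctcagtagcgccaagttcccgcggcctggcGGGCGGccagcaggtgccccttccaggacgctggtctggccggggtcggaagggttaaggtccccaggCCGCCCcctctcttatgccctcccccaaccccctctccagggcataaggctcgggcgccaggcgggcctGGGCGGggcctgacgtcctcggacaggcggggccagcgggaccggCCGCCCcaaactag

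Motifs were searched on both strands in the 250 bases upstream of the first listed start of each gene, and 37 of the 53 members had an entry. The GC box (GGGCGG) was present in 7 of 13 basement membrane genes, 5 of 7 fibrillar genes and 10 of 17 other collagens, against 32.9% of all 27025 promoters. The Lama5 stretch holds 4 of them, Nid1 holds 1, and Col3a1 and the Col4a4 to Col4a3 stretch hold 0. The CCAAT box (CCAAT), seen reversed in the Nid1 stretch, was present in 13 of the 37 members (34.5% of all promoters). The letters of the TATA box (TATAAA), seen in the Col3a1 stretch, were present in 4 members, Col3a1, Col11a2, Col13a1 and Col17a1 (13% of all promoters). Each match is to the letters alone at any position in the 250 bases. The distance to the start was not considered, so a match is not shown to be a working TATA box. The core of the interferon-stimulated response element was in 0 of 37 windows (3.04% of all promoters). These motifs do not overlap each other in the printed stretches.

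Levels per length (CPM per kilobase of merged exons, averaged over the 5 libraries) were led by type IV collagens. Col4a1 stood first at 37.4 ± 8.04 CPM per kilobase (SD, n = 5), followed by the multiplexin Col18a1 (29.0 ± 2.55), Col4a2 (27.0 ± 4.01), Col4a3 (26.1 ± 2.25) and Col4a4 (25.4 ± 2.08). These first 5 overlapped their neighbours in the order over the 5 libraries, whereas every library of Col4a4 lay above every library of Lamb1 (17.4 ± 1.90), the highest laminin, and every library of Lamb1 lay above every library of Lama5 (11.5 ± 1.65). From Lama5 down to the last member each gene overlapped the next. The gap between Col4a4 and Lamb1 depends on the length used: per kilobase of the longest coding transcript Lamb1 (29.8) was in place 4 and Col4a4 (26.7) in place 6. The first fibrillar collagen, Col1a2, was in place 13 (5.97 ± 2.15), and in place 7 when the longest coding transcript was used as the length, because its merged exons span 12426 bases and that transcript 5348 bases. Summed over the class, fibrillar genes came to 11.4%, 7.37% and 8.75% of the basement membrane sum per length in the vehicle libraries and to 11.4% and 11.4% in the DMXAA libraries, so the groups overlapped.

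No member passed the test across all genes in edgeR (quasi-likelihood test, Benjamini-Hochberg adjusted p below 0.05), where 0% of the 16226 tested genes were called. At an unadjusted p below 0.05, 8 of the 48 tested members were higher in DMXAA and 0 were lower, where 3.89% of all tested genes were higher and 2.65% lower (6.55% in either direction). The 8 were Lama3, Col14a1, Col4a1, Nid2, Col15a1, Nid1, Col4a2 and Col6a2. DESeq2 called 1 member, Lama3, which was higher, where 0.296% of genes were called, 0.253% higher and 0.0439% lower. In 13 tested members both DMXAA libraries lay above all vehicle libraries (13.7% of all tested genes), and in 2, Lamb3 and Col20a1, both lay below them (12.3%). The median log2 fold change (DMXAA over vehicle) was 0.12 over the 21 basement membrane genes, 0.26 over 9 fibrillar genes and 0.0021 over 18 other collagens, against -0.01 over all genes tested. The basement membrane median was thus 0.13 below the fibrillar median, and this difference changed sign without vehicle library 3 (0.04) and with the replicate number as a block (0.06).

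**Figure D1:**
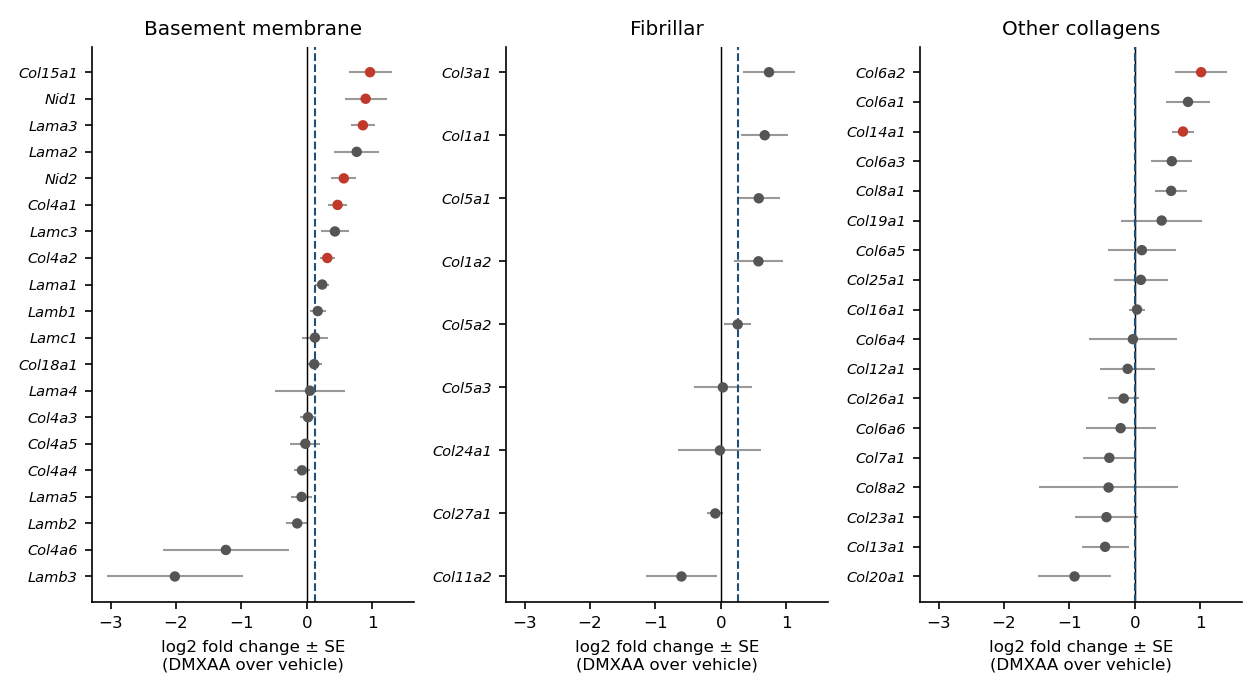
Log2 fold change of DMXAA over vehicle (horizontal axis) with its standard error for 47 of the 48 tested members, by class; red points have an unadjusted p below 0.05 in edgeR, the dashed line is the median of the class over all its tested members and the solid line is 0. Basement membrane genes run from -2.02 (Lamb3) to 0.97 (Col15a1), fibrillar genes from -0.60 (Col11a2) to 0.74 (Col3a1) and other collagens from -0.92 (Col20a1) to 1.01 (Col6a2).

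Libraries within each group differed, which touches most values that follow. Total counts were 17667490 to 20264228 per library, and 3 counts correspond to 0.149 to 0.171 CPM. All 5 proximal tubule markers were detected in all libraries, as fits the kidney label, and their sum was higher in both DMXAA libraries (7723 and 8393 CPM) than in all vehicle libraries (6500, 7650 and 5969 CPM). Of these markers, Slc5a2 (log2 fold change 0.64, SE 0.14) and Cubn (0.32, SE 0.12) had an unadjusted p below 0.05 in edgeR. The sum of the 5 podocyte markers was 368, 366 and 425 CPM in vehicle kidneys and 399 and 464 CPM in DMXAA, so the groups overlapped. The sum of the 7 adipocyte markers was 675 CPM in vehicle library 1 and 27.7 and 50.3 CPM in the other vehicle libraries. It was 47.6 and 55.5 CPM in DMXAA, where Adipoq was at 0. Fabp4 alone gave 271, 27.3 and 41.7 CPM of these sums over vehicle libraries 1 to 3, and 47.4 and 55.1 CPM with DMXAA. The sum of the 8 urothelial markers was 279 CPM in vehicle library 1 and 118 and 144 CPM in the other vehicle libraries. In DMXAA it was 105 and 111 CPM. Of these urothelial sums, Krt7 alone gave 140, 115 and 125 CPM over vehicle libraries 1 to 3, and 94.3 and 104 CPM with DMXAA. The other urothelial markers differed by more than the sums show, and all were highest in vehicle library 1. Krt19 reached 27.2 CPM there (0.846 to 3.05 elsewhere) and Upk3b 24.6 CPM (0.341 to 6.71 elsewhere). Vehicle library 2 was lowest in the sum of the 5 fibroblast markers other than Col1a1. That sum was 60.8 CPM there, 160 and 137 CPM in the other vehicle libraries and 151 and 153 CPM in DMXAA. Dcn, Pdgfra, Lum and Dpt were each lowest there, while Pi16 was highest there, at 7.85 CPM against 5.22 to 7.78 CPM elsewhere. The sum of the 6 endothelial markers was also lowest in vehicle library 2, at 261 CPM. It was 460 and 377 CPM in the other vehicle libraries and 414 and 441 CPM in DMXAA. No fibroblast or endothelial marker was at 0 in any library. The 4 markers of collecting duct and inner medulla were Aqp2, Aqp3, Fxyd4 and Slc14a2. Their sums were 1071, 352 and 509 CPM over vehicle libraries 1 to 3, against 466 and 553 CPM with DMXAA. Aqp2 alone gave 774, 217 and 292 CPM of these sums in vehicle kidneys, and 276 and 327 CPM in DMXAA. Those of the 6 smooth muscle markers were 215, 78.3 and 67.6 CPM, against 70.6 and 77.7 CPM with DMXAA. Both lists were thus highest in vehicle library 1. The inner medulla marker Slc14a2 was lowest in vehicle library 2 (8.76 CPM), while every other library lay between 65.8 and 90.1 CPM. The part of these differences in the results was not tested, and in bulk tissue fewer cells of a type cannot be told from less RNA per cell. Vehicle library 2 gave the lowest value of the 5 in 30 of the 48 tested members (25.6% of all tested genes), and vehicle library 1 and DMXAA library 2 each gave the highest value in 20 (25.9% and 18.7%).

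Among type IV collagens, the widely expressed alpha-1 and alpha-2 genes were higher in both DMXAA libraries than in all vehicle libraries, and the glomerular alpha-3, alpha-4 and alpha-5 genes had overlapping groups. Col4a1 (ENSMUSG00000031502, mm10 chromosome 8, 11198423 to 11312826) was at 234, 219 and 273 CPM in vehicle kidneys and 300 and 370 CPM in DMXAA, a log2 fold change of 0.47 (SE 0.14, edgeR unadjusted p = 0.0133, adjusted p = 0.724). Its neighbour Col4a2 (ENSMUSG00000031503, chromosome 8, 11312805 to 11449287) was at 161, 151 and 176 CPM in vehicle kidneys and 184 and 220 CPM in DMXAA, a log2 fold change of 0.31 (SE 0.12). For both genes DMXAA library 2 was the highest library and vehicle library 2 the lowest. Because the first exons overlap and the strand setting of the counting is not given, reads of the shared 22 bases cannot be assigned to either.

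Col4a3 and Col4a4 varied little over the 5 libraries, and Col4a5 varied more and was lower. Col4a3 was at 288, 246 and 244 CPM in vehicle kidneys and 243 and 282 CPM in DMXAA (log2 fold change 0.02, SE 0.12, with the sign changing in 5 of 13 alternative settings). Col4a4 was at 299, 269 and 258 CPM in vehicle kidneys and 241 and 282 CPM in DMXAA (-0.07, SE 0.12). Col4a5 was at 76.0, 42.6 and 52.6 CPM in vehicle kidneys and 55.8 and 56.6 CPM in DMXAA (-0.02, SE 0.23), with both DMXAA libraries between vehicle libraries 1 and 3. Col4a6, whose chain joins alpha-5 in Bowman's capsule and some other epithelial basement membranes, stood apart by a single library: it was at 18.8 CPM in vehicle library 1, 1.59 and 3.44 CPM in the other vehicle libraries and 3.11 and 3.63 CPM in DMXAA. Its log2 fold change of -1.24 (SE 0.96) became 0.41 without vehicle library 1.

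**Figure D2:**
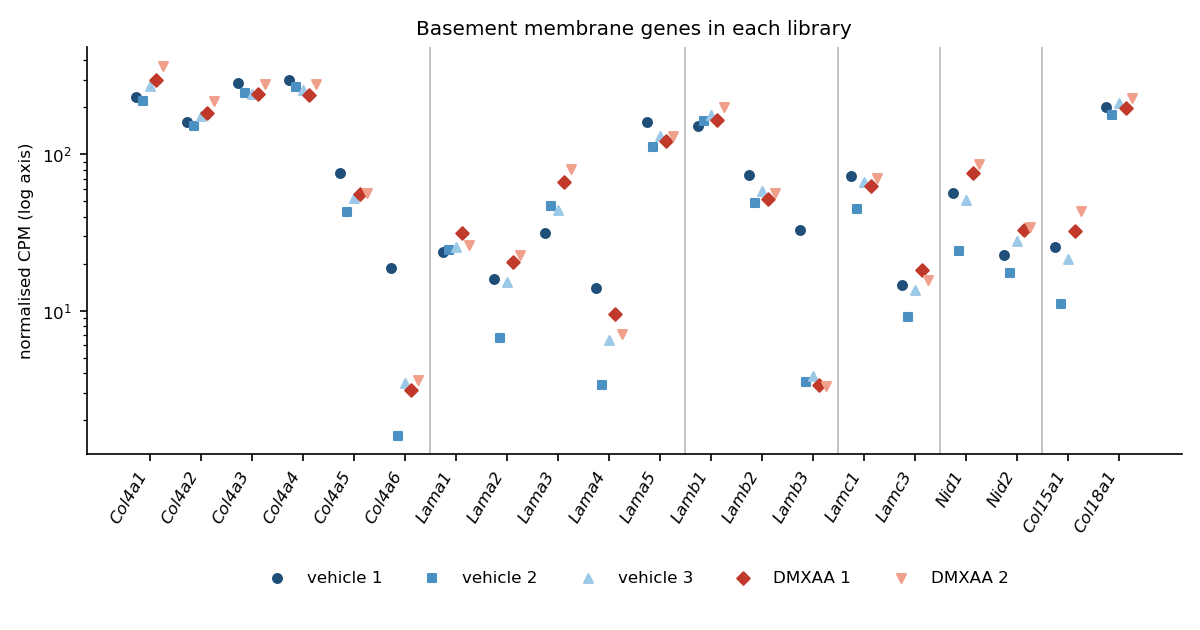
Normalised CPM (log axis) of 20 of the 21 basement membrane genes in each of the 5 libraries, grouped as type IV collagens, laminin alpha, beta and gamma chains, nidogens and multiplexins. Col4a3 and Col4a4 stay between 241 and 299 CPM in all libraries, Col4a6 and Lamb3 are high in vehicle library 1 alone (18.8 and 32.8 CPM), and Nid1 and Col15a1 are lowest in vehicle library 2 (24.0 and 11.0 CPM).

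Ratios per length were taken within each library, both between chains of 1 trimer and between the ubiquitous and glomerular networks. Col4a3 over Col4a4 was 1.02, 0.976 and 1.004 in vehicle and 1.07 and 1.07 in DMXAA, a highest-over-lowest range of 1.10-fold. Col4a5 over Col4a3, from the same trimer, had a wider range of 1.53-fold (0.392, 0.257 and 0.321 in vehicle, 0.341 and 0.298 in DMXAA), and its groups overlapped. Col4a1 over Col4a2 was 1.29, 1.28 and 1.37 in vehicle and 1.44 and 1.49 in DMXAA. Col4a1 over Col4a3, which compares the 2 networks, was 1.08, 1.19 and 1.495 in vehicle and 1.65 and 1.75 in DMXAA (1.61-fold), and Col4a2 over Col4a4 was 0.862, 0.903 and 1.09 in vehicle and 1.23 and 1.25 in DMXAA (1.45-fold). Apart from Col4a5 over Col4a3, these ratios were higher in both DMXAA libraries than in all vehicle libraries. With 3 libraries against 2 there are 10 arrangements, and an exact rank test over libraries cannot give a two-sided p below 0.2. The ratios are given as values without a test.

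Laminin alpha chains carry most cell-binding sites of a laminin, and 3 of their 5 genes were higher in both DMXAA libraries than in all vehicle libraries (13.7% of all tested genes). Lama3, the alpha chain of a laminin that anchors epithelial cells, was at 31.6, 46.9 and 43.9 CPM in vehicle kidneys and 67.0 and 80.8 CPM in DMXAA. Both DMXAA libraries lay above all vehicle libraries, and vehicle library 1 was the lowest. The log2 fold change was 0.86 (SE 0.18, edgeR unadjusted p = 0.0022, adjusted p = 0.629). DESeq2 called Lama3 (adjusted p = 0.0172), as did edgeR without an expression filter (adjusted p = 0.0402), and Lama3 was not called by DESeq2 when vehicle library 3 (adjusted p = 0.0649) or either DMXAA library was left out (0.197 without DMXAA library 1).

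Lamb3, a beta chain that joins the Lama3 chain, did not have the pattern of Lama3. It was at 32.8 CPM in vehicle library 1, 3.52 and 3.83 CPM in the other vehicle libraries and 3.33 and 3.28 CPM in DMXAA, a log2 fold change of -2.02 (SE 1.04) that was -0.16 without vehicle library 1. Vehicle library 1 was also the library highest in urothelial markers, and their part in this result was not tested. Genes of the integrin chains Itgb4, a laminin receptor of hemidesmosomes, and Itga2, a collagen receptor, were also highest there, at 14.7 and 10.2 CPM against 4.16 to 7.21 and 0.398 to 1.22 CPM elsewhere.

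Of the remaining alpha chains, Lama2 and Lama1 had groups that did not overlap. Lama2, the alpha chain of muscle and mesangial laminin, was at 16.002, 6.71 and 15.4 CPM in vehicle kidneys and 20.4 and 22.7 CPM in DMXAA (log2 fold change 0.76, SE 0.34). Lama1, found in tubular basement membrane, was at 23.9, 24.4 and 25.5 CPM in vehicle kidneys and 31.4 and 26.5 CPM in DMXAA (0.24, SE 0.11), with DMXAA library 2 only just above vehicle library 3. Lama5, the main alpha chain of the mature glomerular basement membrane and the most abundant of the 5 per length, was at 162, 111 and 130 CPM in vehicle kidneys and 122 and 132 CPM in DMXAA (-0.08, SE 0.16). Its groups overlapped, as did those of Lama4, a chain of vessel walls, at 14.1, 3.35 and 6.54 CPM in vehicle kidneys and 9.49 and 7.06 CPM in DMXAA (0.05, SE 0.53). Lama3 over Lama5 per length was 0.207, 0.448 and 0.358 in vehicle and 0.581 and 0.650 in DMXAA.

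The common beta and gamma chains differed little beside their spread. Lamb1, the beta chain of most laminins, was at 152, 163 and 177 CPM in vehicle kidneys and 167 and 202 CPM in DMXAA (0.17, SE 0.12). Lamb2, the glomerular beta chain, was at 73.3, 48.7 and 58.4 CPM in vehicle kidneys and 52.0 and 56.6 CPM in DMXAA (-0.15, SE 0.17). Lamc1, the gamma chain shared by most laminins, was at 72.6, 44.9 and 66.4 CPM in vehicle kidneys and 62.9 and 70.6 CPM in DMXAA (0.12, SE 0.20). These 3 genes had overlapping groups. The rarer gamma chain Lamc3 was at 14.7, 9.15 and 13.6 CPM in vehicle kidneys and 18.1 and 15.6 CPM in DMXAA (0.43, SE 0.22), with both DMXAA libraries above all vehicle libraries. Over all 11 laminin genes, 7 estimates were above 0, 1 had an unadjusted p below 0.05 in edgeR, and the median log2 fold change was 0.12.

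Both nidogen genes, which encode the linkers between the laminin and type IV collagen networks, were higher in both DMXAA libraries than in all vehicle libraries. Nid1 (ENSMUSG00000005397, chromosome 13, 13437551 to 13512269) was at 56.2, 24.0 and 50.8 CPM in vehicle kidneys and 76.0 and 87.0 CPM in DMXAA, a log2 fold change of 0.90 (SE 0.32, edgeR unadjusted p = 0.028, adjusted p = 0.741). Nid2 was at 22.8, 17.5 and 28.1 CPM in vehicle kidneys and 33.0 and 34.4 CPM in DMXAA (0.57, SE 0.19). Vehicle library 2 was lowest for both, and without it the Nid1 estimate was 0.61 in edgeR and DESeq2 called it. Rtraf shares 8.45% of the exon bases of Nid2, so its level is uncertain by that much of its sequence.

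The multiplexins, collagens that carry heparan or chondroitin sulfate chains at basement membranes, are encoded by Col15a1 and Col18a1. Col15a1 (ENSMUSG00000028339, chromosome 4, 47208161 to 47313167) was at 25.7, 11.0 and 21.4 CPM in vehicle kidneys and 32.1 and 43.6 CPM in DMXAA, a log2 fold change of 0.97 (SE 0.33, edgeR unadjusted p = 0.0225, adjusted p = 0.74). Col18a1, the precursor of endostatin, was at 200, 180 and 212 CPM in vehicle kidneys and 199 and 228 CPM in DMXAA (0.11, SE 0.11). The groups did not overlap for Col15a1 and overlapped for Col18a1.

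The fibrillar collagens of types I and III had higher means in DMXAA, but vehicle library 1 reached into the DMXAA range for each. Col1a1 was at 34.7, 13.1 and 24.4 CPM in vehicle kidneys and 33.6 and 43.1 CPM in DMXAA, a log2 fold change of 0.67 (SE 0.36). Col1a2 was at 89.5, 32.0 and 64.5 CPM in vehicle kidneys and 85.4 and 99.4 CPM in DMXAA (0.58, SE 0.37). Col3a1 was at 59.7, 19.6 and 38.3 CPM in vehicle kidneys and 58.7 and 71.9 CPM in DMXAA (0.74, SE 0.40). The 3 genes shared 1 order of libraries, with vehicle library 2 lowest, then vehicle library 3, DMXAA library 1, vehicle library 1 and DMXAA library 2. Col1a1 over Col1a2 per length of merged exons stayed between 0.716 and 0.822. Per kilobase of the longest coding transcript the mean levels were 5.02 CPM for Col1a1 and 13.9 CPM for Col1a2. The size of this ratio thus depends on the length used. None had an unadjusted p below 0.05 in edgeR over all libraries, and without vehicle library 1 the Col1a1 estimate was 1.03 and DESeq2 called Col1a1.

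The minor fibrillar genes were mixed. Col5a1, a regulator of fibril diameter, was at 15.0, 6.37 and 11.6 CPM in vehicle kidneys and 17.9 and 15.1 CPM in DMXAA (log2 fold change 0.58, SE 0.33), the only fibrillar gene whose groups did not overlap. Col5a2, its partner chain, was at 26.5, 38.4 and 24.96 CPM in vehicle kidneys and 32.2 and 39.4 CPM in DMXAA (0.26, SE 0.20). Vehicle library 2 was the highest vehicle library for Col5a2 and the lowest for Col5a1, so that Col5a1 over Col5a2 per length lay between 0.187 and 0.640. Col5a3 was at 6.49, 2.33 and 2.88 CPM in vehicle kidneys and 4.11 and 3.88 CPM in DMXAA (0.03, SE 0.45). Col27a1, a fibrillar collagen of cartilage, was at 40.4, 32.9 and 34.4 CPM in vehicle kidneys and 35.7 and 32.1 CPM in DMXAA (-0.08, SE 0.12). The groups of both overlapped, as did those of the rare Col11a2, at 1.14, 0.569 and 0.666 CPM in vehicle kidneys and 0.333 and 0.696 CPM in DMXAA. Col24a1 was at 0.595, 0.796 and 0.333 CPM in vehicle kidneys and 0.277 and 0.846 CPM in DMXAA, so the DMXAA libraries lay on either side of all vehicle libraries.

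**Figure D3:**
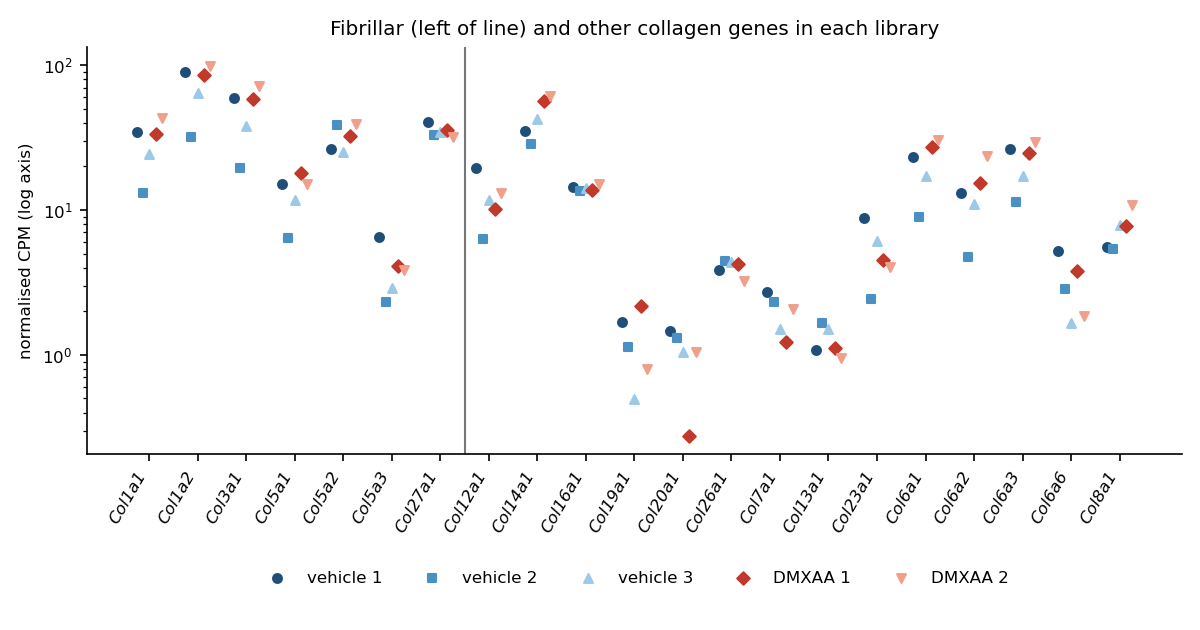
Normalised CPM (log axis) of 7 fibrillar genes (left of the line) and 14 other collagen genes with a mean of at least 1 CPM, in each of the 5 libraries. Col1a1, Col1a2 and Col3a1 are lowest in vehicle library 2 and highest in DMXAA library 2, while Col14a1 is higher in both DMXAA libraries (56.2 and 61.5 CPM) than in all vehicle libraries.

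Of the other collagens, Col14a1, a collagen that sits on the surface of fibrils, had the smallest p. It was at 34.9, 28.7 and 42.4 CPM in vehicle kidneys and 56.2 and 61.5 CPM in DMXAA, a log2 fold change of 0.74 (SE 0.16, edgeR unadjusted p = 0.00303, adjusted p = 0.64; DESeq2 adjusted p = 0.0519). Without vehicle library 1, 2 or 3 DESeq2 called Col14a1, and without either DMXAA library it did not. Of the same class, Col20a1 was at 1.46, 1.31 and 1.05 CPM in vehicle kidneys and 0.277 and 1.04 CPM in DMXAA (-0.92, SE 0.56), where the second DMXAA library was level with the lowest vehicle library.

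Type VI collagen forms beaded microfibrils beside cell surfaces, and its 3 main chain genes were lowest in vehicle library 2. Col6a1 was at 23.2, 8.93 and 17.2 CPM in vehicle kidneys and 27.3 and 30.6 CPM in DMXAA (0.81, SE 0.34). Col6a2 was at 13.2, 4.72 and 10.9 CPM in vehicle kidneys and 15.4 and 23.4 CPM in DMXAA (1.01, SE 0.40). Both had groups that did not overlap. Col6a3, named for its part in the same trimer, was at 26.4, 11.4 and 17.1 CPM in vehicle kidneys and 24.7 and 29.5 CPM in DMXAA (0.57, SE 0.31), and vehicle library 1 lay inside the DMXAA range. Col6a3 over Col6a1 per length was 0.416, 0.469 and 0.363 in vehicle and 0.332 and 0.352 in DMXAA.

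The remaining classes were rare in this tissue. Col8a1, a short-chain collagen of vessel walls, was at 5.57, 5.40 and 7.88 CPM in vehicle kidneys and 7.71 and 10.7 CPM in DMXAA (0.56, SE 0.25), and its groups overlapped. Its partner Col8a2 was at 0.919, 0.0569 and 0.721 CPM in vehicle kidneys and 0.777 and 0.0995 CPM in DMXAA, under 3 counts in 1 library of each group. Col23a1 and Col13a1, which span the cell membrane, were at 8.76, 2.44 and 6.16 CPM and at 1.08, 1.65 and 1.497 CPM in vehicle. They were at 4.55 and 4.03 CPM and at 1.11 and 0.945 CPM in DMXAA. Col7a1, the anchoring fibril collagen, was at 2.70, 2.33 and 1.497 CPM in vehicle kidneys and 1.22 and 2.09 CPM in DMXAA, and Col26a1 at 3.84, 4.43 and 4.38 CPM in vehicle kidneys and 4.27 and 3.23 CPM in DMXAA. All 4 had overlapping groups and estimates below 0. The tested other collagens not given above were Col25a1 and, from the classes of the earlier paragraphs, Col6a4, Col6a5, Col6a6, Col12a1, Col16a1 and Col19a1. They had log2 fold changes from -0.22 (Col6a6) to 0.41 (Col19a1) and overlapping groups.

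**Figure D4:**
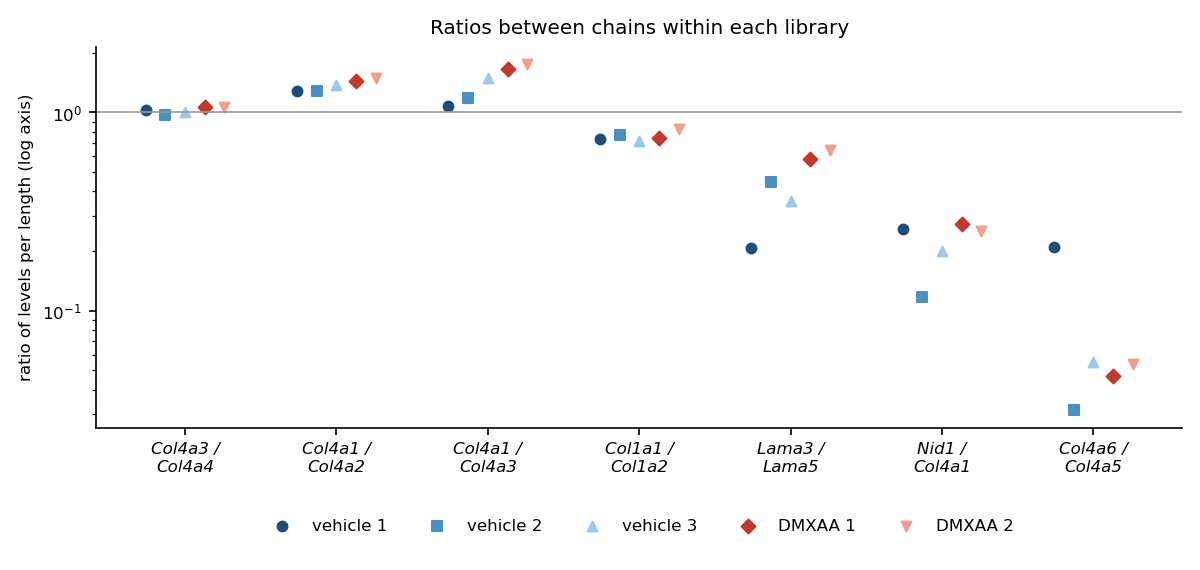
Ratio of levels per length (log axis) between the genes named on the horizontal axis, within each of the 5 libraries; the line marks 1. Col4a3 over Col4a4 spans 0.976 to 1.07, Lama3 over Lama5 is higher in both DMXAA libraries (0.581 and 0.650) than in all vehicle libraries, and vehicle library 1 stands apart for Col4a6 over Col4a5 (0.209).

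Genes that fold, cut, bind and degrade these proteins were read in 6 lists, in which edgeR called 0 of 75 tested genes, and 3 were higher and 1 lower at an unadjusted p below 0.05. The 3 are 4% of the 75, against 3.89% of all tested genes, so the count is at the background, and the median log2 fold change was 0.06. DESeq2 also called 0. The 3 higher genes were P3h2, Tll1 and Egflam. Among 19 genes for collagen folding and modification (median 0.03), P3h2, a prolyl hydroxylase that acts on type IV collagen, was at 110, 92.6 and 118 CPM in vehicle kidneys and 133 and 151 CPM in DMXAA (0.41, SE 0.13). The lysyl hydroxylase Plod3 had an estimate of -0.21 (SE 0.10) and the prolyl hydroxylase P3h1 one of 0.22 (SE 0.12). Among 6 procollagen processing genes (median 0.14), the protease Tll1 was at 2.32, 1.42 and 2.77 CPM in vehicle kidneys and 4.33 and 4.73 CPM in DMXAA (1.06, SE 0.32). Estimates were 0.62 (SE 0.35) for the propeptide protease Adamts2 and -0.18 (SE 0.21) for Bmp1.

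Among 17 basement membrane partners (median 0.16), 14 estimates were above 0, against 46.9% of all tested genes, and 1 had an unadjusted p below 0.05. Egflam, a ligand of dystroglycan, was at 8.60, 3.92 and 6.88 CPM in vehicle kidneys and 9.99 and 11.9 CPM in DMXAA (0.76, SE 0.32). The proteoglycan Agrn had an estimate of 0.22 (SE 0.10) and the tubular antigen Tinag one of 0.35 (SE 0.17). Among 13 receptors (median -0.03), Itgb4 was the gene lower at an unadjusted p below 0.05 (-1.03, SE 0.41), with its highest value in vehicle library 1, and the collagen and laminin receptor subunits Itga1 and Itga6 were at 0.23 (SE 0.10) and 0.42 (SE 0.19). Among 9 proteases and inhibitors (median 0.05), estimates were 0.40 (SE 0.17) for the membrane collagenase Mmp14, 0.28 (SE 0.13) for Timp3 and 0.82 (SE 0.43) for the gelatinase Mmp2, all with groups that did not overlap. Among 11 genes of TGF-beta signalling to matrix genes (median -0.05), the inhibitor Smad7 was at -0.25 (SE 0.11), the receptor Tgfbr1 at 0.18 (SE 0.08) and the ligand Tgfb2 at -0.75 (SE 0.43).

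The count of 8 members higher at an unadjusted p below 0.05 was 15 without vehicle library 1, when 4.98% of all genes were higher at that p. It was 10 without vehicle library 2 (6.73%), 8 without vehicle library 3 (3.33%), 7 without DMXAA library 1 (1.97%) and 3 without DMXAA library 2 (0.872%), where the lone DMXAA sample is assumed to vary like the vehicle samples. For DESeq2 with 1 library left out, the share of all genes called was not counted, so the calls that follow have no background beside them. DESeq2 called Col1a1, Col6a1, Col6a2, Col6a3, Col14a1, Col15a1 and Lama3 without vehicle library 1, and Col14a1, Lama3 and Nid1 without vehicle library 2. It called Col14a1 without vehicle library 3 and none of the members without either DMXAA library. The count of 13 members above all vehicle libraries became 21 without vehicle library 1, 15 without vehicle library 2, 16 without vehicle library 3, 23 without DMXAA library 1 and 15 without DMXAA library 2, where 21.4%, 22.9%, 19.2%, 23.9% and 22.4% of all tested genes lay above.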

How the data were processed

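RNA of 5 mouse kidney samples (3 vehicle, 2 DMXAA) was sequenced. The values are whole-number read counts per Ensembl gene ID, not normalised, as deposited by the authors. The tools listed in the submitters' processing notes are featureCounts, Subread, HISAT2 and DESeq2, with mm10 as build. The role of each tool and the strand setting were not stated. The labels' protocols name both a TruSeq and a NEBNext kit without saying which sample had which, so a library batch was not tested. Columns CO1 to CO3 and XA1 to XA2 were read as vehicle and DMXAA replicates by name. GENCODE M21 (GRCm38, the assembly of mm10) gave symbols for 99.93% of IDs. All library pairs differed by more than counting error (chi-square over its degrees of freedom 7.35 to 38.5).

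From the counts, edgeR 4.0.16 in R 4.3.3 ran the quasi-likelihood test (two-sided, TMM scaling, default filter, group as the only term), adjusted over 16226 genes. Levels are TMM-normalised CPM, and SD is over samples. SE was derived from the test, as the absolute log2 fold change divided by the square root of its F statistic. On simulated counts for 15940 genes it recovered 67 of 100 genes with a 2-fold change and 98 of 100 with a 4-fold change, and called 5 others. The simulated spread followed the trend with level, without gene-wise spread or composition differences between libraries. Only genes with a mean log2 CPM above 1 were changed. These shares may therefore overstate what the test can recover in the real libraries. Alternatives were DESeq2 1.42.0, RLE size factors, no filter, a filter of 1 CPM in 2 samples, a robust prior, leaving out the most abundant and the mitochondrial genes, length and GC correction, the replicate block and leaving out each library. Values in every library are printed for basement membrane and fibrillar members that passed the filter and for up to 2 members with the smallest p in each other class, with estimates for the 3 genes of each further list with the smallest p, and Col6a3 and Itga2 were added after their values were seen. The members and lists were chosen with earlier results of these data known. Values of 1 basement membrane member are not reported here, though it is counted in the classes.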

Additional observations from a re-analysis of the deposited data

How the results depend on the processing

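Class medians and the basement membrane minus fibrillar difference moved by less than the spread between libraries in all settings, but the fibrillar median was 0.57 and the difference -0.45 with a filter of 1 CPM in 2 samples, and the fibrillar median ran from 0.11 to 0.61 with 1 library left out. Of 40 named members, 27 kept the sign of their estimate in all settings run. With DESeq2, 54 genes and 1 member were called. Without an expression filter edgeR called 34 of 28037 genes and 1 member. At an unadjusted p below 0.05, 17 members were then higher and 1 lower, where 2.78% of all genes were higher. Robust empirical Bayes gave 5 members higher at that p (3.86% of all tested genes). The 2 pairs of libraries that share a replicate number had deviations from their group means correlated at 0.075 and 0.081. The deviations of the 2 DMXAA libraries mirror each other, so these values cannot settle whether the numbers pair the samples. With the replicate number as a block, edgeR called 4 genes and 0 members. In that fit 12 members were higher at an unadjusted p below 0.05 (3.14% of all tested genes), and Col4a3 was at -0.024. With length and GC correction Col4a3 was at -0.037.

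Leaving out 1 library at a time, edgeR called 0 to 2 genes and 0 members, with 149 to 1079 genes higher, 3 to 15 members higher and 0 to 3 members lower at an unadjusted p below 0.05. The members above all vehicle libraries numbered 15 to 23, where 19.2% to 23.9% of all tested genes lay above. For the DESeq2 calls that follow, the share over all genes was not counted. DESeq2 called 0 to 7 members (added after the data were seen), with Lama3 at 0.706 to 0.998. Leave-out estimates that changed sign ran from -0.20 to 0.069 for Lama5, -0.27 to 0.014 for Lamb2, -0.19 to 0.23 for Col4a5, -1.72 to 0.41 for Col4a6, -1.03 to 0.56 for Col24a1, -0.16 to 0.0023 for Col27a1, -2.43 to 0.45 for Col8a2, -0.31 to 0.73 for Lama4, -0.054 to 0.26 for Lamc1, -0.092 to 0.13 for Col4a3, -0.23 to 0.61 for Col5a3, -0.19 to 0.041 for Col4a4 and -0.38 to 0.020 for Col26a1.
The depth limits the 5 members under the filter and those near 0.171 CPM, such as Col8a2, where a difference was not detectable.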
